A study of Mus musculus with 17 samples.

Results

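The RNAs described here were 10 long noncoding RNAs that act or are retained in the nucleus, namely Malat1, Neat1, Meg3, Rian, Mirg, Miat, Snhg11, Snhg14, Peg13 and Pantr1. They were chosen by name, with earlier results of these data known, as the rows of the gene table whose Ensembl identifiers map to these symbols. All 10 were found among its 55471 genes. The data were gene counts of total RNA from the hippocampus of 17 male C57BL/6 mice (C57BL/6J in the study's methods) aged 3 to 6 months, 1 mouse per library, in 2 genotypes and 3 treatments. CBP-ifKO mice carried floxed Crebbp alleles and a tamoxifen-dependent Cre recombinase, creERT2, under a Camk2a promoter, which directs recombination to excitatory neurons of the adult forebrain, where a truncated CBP without acetyltransferase activity is then made. Other hippocampal cells, all of which are in the tissue sampled, keep the allele. Controls were littermates that the study's methods describe as lacking creERT2, although their labels name the driver, and both genotypes had received 5 intragastric administrations of tamoxifen at 20 mg/ml. Sal mice were not kindled and were given saline, PTZ0 mice were kindled with 45 mg/kg pentylenetetrazole (PTZ, a blocker of GABA-A receptors) on alternate days and were given saline last, and PTZ45 mice were kindled and were given 45 mg/kg PTZ last. The study reports that, unlike controls, no CBP-ifKO mouse went on to progressive seizures. The word kindled therefore names the injections received, and the state of the kindled groups differed between the genotypes. In the study, the last injection came a week after kindling. The tissue was dissected 45 min after that injection, and each group comprised 3 mice, save for 2 in Control PTZ45. A column of counts named like a further Control PTZ45 library matched no sample of the labels and was not used.

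Long noncoding RNAs are transcripts that are not translated into a protein, and many of them stay on chromatin or in nuclear bodies. Malat1 lies in nuclear speckles, which store splicing factors, and Neat1 is the scaffold of paraspeckles, which hold RNA-binding proteins such as Nono and Sfpq. Meg3, Rian and Mirg are made from the maternal copy of the imprinted Dlk1-Dio3 region and host small nucleolar RNAs and microRNAs, whereas Snhg14 is made from the paternal copy of the Prader-Willi and Angelman region, where it runs antisense to Ube3a. Peg13 is a paternally expressed RNA inside Trappc9. Miat is a neuronal nuclear RNA that binds splicing factors, Snhg11 is a neuronal host gene of small nucleolar RNAs, and Pantr1 lies beside Pou3f3, which encodes a transcription factor of upper-layer and hippocampal neurons. CBP is a lysine acetyltransferase that is recruited, among other factors, by CREB, which binds the cAMP response element of promoters.

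On GRCm38, with GENCODE M21 as the annotation, Malat1 (ENSMUSG00000092341) spanned chr19:5795690-5802672 and Neat1 (ENSMUSG00000092274) spanned chr19:5824708-5845478, both on the minus strand. Meg3 (ENSMUSG00000021268, chr12:109541001-109571726), Rian (ENSMUSG00000097451, chr12:109603940-109661716) and Mirg (ENSMUSG00000097391, chr12:109729764-109749460) followed each other on the plus strand. Miat (ENSMUSG00000097767) was at chr5:112213228-112229395 on the minus strand, Snhg11 (ENSMUSG00000044349) at chr2:158375638-158386145 on the plus strand and Snhg14 (ENSMUSG00000100826) at chr7:59307924-59975759 on the minus strand. Peg13 (ENSMUSG00000106847, chr15:72805600-72810324) and Pantr1 (ENSMUSG00000060424, chr1:42590782-42694842) were on the minus strand. The annotation types Snhg11 as protein coding, and the other 9 genes have noncoding types. Counts were taken over exons, and the 20.771 kb exonic length of Neat1 does not separate its short form from its long form.

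RefSeq promoter sequences of GRCm38.p6, from 250 bases before to 50 bases after a start, were at hand for 7 of the 10 genes, in 8 rows because Meg3 has a pair of starts. No row was used for Neat1, Peg13 or Pantr1. The core of the cAMP response element, TGACG, was searched on both strands, so that CGTCA on the printed strand also counts, and each match is written in capitals. The promoters of 4 RNAs called in the comparisons that follow are printed here 5′ to 3′ on the strand of the gene, those of Malat1 and Meg3, which hold this core and were higher in PTZ45 than in PTZ0 controls, of Snhg11, which was also higher there but does not hold it, and of Miat, which was lower in CBP-ifKOs and does not hold it. They lie at chr19:5802623-5802922 (minus strand, Malat1), chr12:109540746-109541045 (plus strand, the first start of Meg3), chr5:112228899-112229198 (minus strand, Miat) and chr2:158375463-158375762 (plus strand, Snhg11).
Malat1: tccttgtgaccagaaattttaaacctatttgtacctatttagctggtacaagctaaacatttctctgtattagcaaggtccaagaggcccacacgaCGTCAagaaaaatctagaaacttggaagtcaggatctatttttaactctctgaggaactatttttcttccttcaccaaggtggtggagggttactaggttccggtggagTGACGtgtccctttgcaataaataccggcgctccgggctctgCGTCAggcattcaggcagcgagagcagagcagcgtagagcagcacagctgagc
Meg3: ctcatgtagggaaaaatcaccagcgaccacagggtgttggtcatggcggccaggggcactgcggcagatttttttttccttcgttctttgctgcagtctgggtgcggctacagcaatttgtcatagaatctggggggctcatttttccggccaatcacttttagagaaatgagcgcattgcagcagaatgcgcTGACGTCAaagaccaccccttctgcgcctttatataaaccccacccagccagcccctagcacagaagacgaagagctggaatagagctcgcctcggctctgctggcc
Miat: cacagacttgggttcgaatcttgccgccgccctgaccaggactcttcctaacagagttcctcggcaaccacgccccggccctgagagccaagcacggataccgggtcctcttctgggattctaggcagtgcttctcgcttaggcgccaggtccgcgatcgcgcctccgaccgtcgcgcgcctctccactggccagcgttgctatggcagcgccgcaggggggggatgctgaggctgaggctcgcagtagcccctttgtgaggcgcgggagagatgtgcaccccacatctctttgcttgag
Snhg11: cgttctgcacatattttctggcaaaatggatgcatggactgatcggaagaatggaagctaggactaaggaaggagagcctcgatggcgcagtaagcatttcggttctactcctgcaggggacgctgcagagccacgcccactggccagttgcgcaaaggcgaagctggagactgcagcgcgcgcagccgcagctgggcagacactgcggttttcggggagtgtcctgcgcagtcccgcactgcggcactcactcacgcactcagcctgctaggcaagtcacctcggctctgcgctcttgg

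Malat1 held 3 cores, at -154, -45 and -3 from its start, and Meg3 held 2, at -57 and -54, which overlap by 2 bases and form the full palindromic element. Of all 32851 promoters in the table, 20.8% held at least 1 core, 5.01% held at least 2 and 1.79% held the full element. The other 6 promoter rows, the second start of Meg3 included, held none. Among them is that of Rian, which was also called lower in CBP-ifKOs and is not printed. The windows of Miat, Mirg, Snhg14 and the second start of Meg3 do not include the start of the gene in GENCODE M21. For Miat, the printed window lies inside the annotated gene, with the RefSeq start 447 bases downstream of the annotated one, so that the lack of a core there does not describe the annotated start. A match is a description of letters and was tied to no binding measurement.

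The depth was 5831992 to 18735643 counts per library, and normalized counts are counts divided by DESeq2 size factors over all 17 libraries. Crebbp was measured at 1824 to 2429 normalized counts in the 8 controls and 1061 to 1337 in the 9 CBP-ifKOs, and Esr1, whose counts report the creERT2 transgene, at 41.0 to 77.8 and 703 to 941. Fos, an immediate early gene, was at 23.7 to 62.4 in the control Sal and PTZ0 libraries, at 2483 and 2915 in Control PTZ45 and at 163 to 288 in CBP-ifKO PTZ45. The sequencing lanes named in the labels were shared by Control Sal and Control PTZ0 (lane 3), by Control PTZ45 and CBP-ifKO Sal (lane 4) and by both kindled CBP-ifKO groups (lane 5). Every genotype comparison within a treatment therefore crosses lanes, as do PTZ45 against either other control group and PTZ45 or PTZ0 against Sal in CBP-ifKOs. In all of these, lane and group cannot be told apart. Of the choroid plexus markers, which include Ttr, the summed level ran from 446 to 44537 normalized counts, with a library far above the others of its group in 5 of the 6 groups. Excitatory neuron markers, the cells in which Cre acts, were all tested, and 1 of 6 was called higher in CBP-ifKOs and 0 lower. In hippocampal tissue, fewer cells of a type and less RNA per cell cannot be told apart.

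Malat1 was by far the most abundant of the 10 RNAs. It took 1.51 to 2.07% of all counts of a library, and the 10 RNAs together took 2.17 to 2.71%. Per kb of exon, the mean level over the 17 libraries was 31358 ± 3032 normalized counts for Malat1, 2052 ± 132 for Meg3 and 1348 ± 196 for Snhg11 (SD, n = 17). The ranges of these 3 RNAs did not overlap with each other or with those below them. Miat (537 ± 53.7 per kb) and Peg13 (515 ± 32.5 per kb) came next and overlapped in range. Rian (345 ± 25.7 per kb) and Snhg14 (322 ± 21.6 per kb) also overlapped, and the length used for Rian, as deposited, is 31981 bases against 18234 in GENCODE M21. Mirg (119 ± 9.82 per kb), Pantr1 (92.6 ± 15.7 per kb) and Neat1 (68.0 ± 11.3 per kb) formed the lower end, each overlapping with its neighbour in the order. By level per kb Malat1 ranked 9 among the 13041 genes averaging 50 or more normalized counts, while Mirg ranked 4505, Pantr1 5723 and Neat1 7156. Per length, Malat1, Meg3 and Snhg11 were thus abundant in this tissue, and Neat1, Pantr1 and Mirg were not. The place of Neat1 per kb rests on the 20.771 kb length, which does not separate its forms. By counts not divided by length, Neat1 ranked 1891, Mirg 3204 and Pantr1 5851 among all genes.

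**Figure D1:**
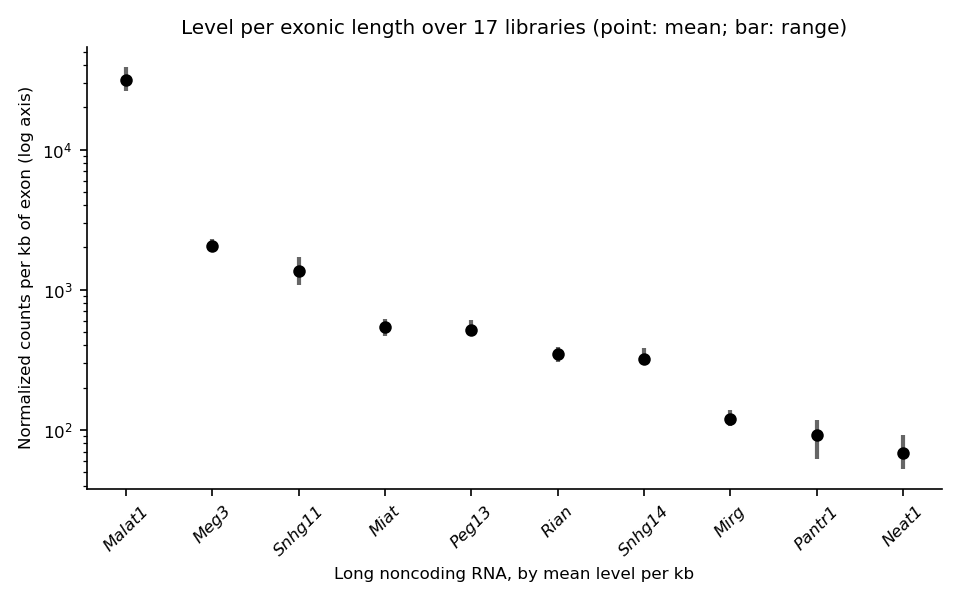
Normalized counts per kb of exon (log axis) for each of the 10 RNAs in 17 hippocampal libraries, ordered by mean, with the mean as a point and the lowest to highest library as a bar. Malat1, at 31358 per kb on average, lies far above Meg3 at 2052, and Neat1 is lowest at 68.0.

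The RNAs also differed in their spread between the libraries of 1 group. The coefficient of variation within groups, averaged over the groups, was 4.50% for Meg3, 4.57% for Rian, 4.60% for Miat, 4.77% for Peg13 and 4.90% for Snhg14, all under the median of 6.43% over the 8528 genes averaging 200 or more normalized counts. It was 13.5% for Neat1 and 12.03% for Snhg11, above 96.5% and 94.6% of those genes. Mirg (7.75%) and Pantr1 (9.21%) lay between, and Malat1 was at 5.50%. These values include counting error, which is relatively smaller at higher levels, and they were not compared with genes of like level. They therefore do not rank the RNAs by how steady they were between mice.

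The first question was whether loss of CBP from excitatory neurons altered the levels of these RNAs. Over all treatments, in CBP-ifKOs relative to controls Pantr1 fell by 24.9%, Miat fell by 15.0% and Rian fell by 10.1%, and Snhg11 was called higher by 16.1%. The other 6 RNAs, Malat1 and Neat1 among them, did not pass the test. Of the 18682 genes tested, 7.76% were called higher and 11.5% lower, and among genes averaging 50 or more normalized counts 25% were called in either direction, so 4 of 10 is not far above the background. The median log2 difference of the 10 RNAs was -0.04, against 0.01 over all genes tested.

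Pantr1 showed the largest difference. Its normalized counts were 454, 510 and 506 in Control Sal, 452, 467 and 440 in Control PTZ0 and 443 and 524 in Control PTZ45. In CBP-ifKOs they were 333, 369 and 401 in Sal, 334, 391 and 276 in PTZ0 and 373, 344 and 400 in PTZ45. Every CBP-ifKO library was below every control library, as held for 2.99% of the genes tested, and no other of the 10 RNAs separated the genotypes in this way. The log2 fold change was -0.41 ± 0.07 (SE; DESeq2, Wald test, adjusted p = 2.89e-08). Pou3f3, its neighbour, differed by a log2 fold change of -0.20 ± 0.06 (DESeq2 adjusted p = 0.00469), whereas Pantr2, another noncoding gene of the locus, was at -0.02 ± 0.14 (DESeq2 adjusted p = 0.942). Of the 5 neighbours of Pantr1 that were tested, 1 was called lower and 0 higher.

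Miat was measured at 5480, 5638 and 5290 normalized counts in Control Sal, 5573, 5735 and 5424 in Control PTZ0 and 5394 and 4962 in Control PTZ45. The CBP-ifKO libraries gave 4328, 4820 and 4950 in Sal, 5072, 4448 and 4529 in PTZ0 and 4365, 4489 and 4384 in PTZ45. The genotypes overlapped only through the second Control PTZ45 library and the first CBP-ifKO PTZ0 library. The log2 fold change was -0.24 ± 0.04 (SE; DESeq2 adjusted p = 2.28e-09). None of the 5 tested genes beside Miat was called by DESeq2.

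Rian ranged from 10655 to 12421 normalized counts in controls (median 11616, n = 8) and from 9746 to 11676 in CBP-ifKOs (median 10373, n = 9). The ranges overlapped, with the lower CBP-ifKO libraries under all controls. Its log2 fold change was -0.15 ± 0.04 (SE; DESeq2 adjusted p = 0.000574). Meg3 and Mirg, made from the same imprinted region, had log2 fold changes of -0.04 ± 0.04 and -0.10 ± 0.05, and neither passed the test (DESeq2 adjusted p = 0.537 and 0.19). The ratio of Rian to Meg3 was 0.310 ± 0.014 in controls (SD, n = 8) and 0.288 ± 0.019 in CBP-ifKOs (SD, n = 9). Of the other genes of the Dlk1-Dio3 region, 2 of 6 tested were lower and 0 higher. These were Dio3, a thyroid hormone deiodinase with a mean of only 25.2 normalized counts, at -0.88 ± 0.22, and Ppp2r5c, a phosphatase subunit, at -0.11 ± 0.04 (DESeq2 adjusted p = 0.000677 and 0.0208).

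Snhg11 ranged from 9251 to 12773 normalized counts in controls (median 10108, n = 8) and from 9610 to 14693 in CBP-ifKOs (median 12547, n = 9). The genotypes overlapped over most of this range. The log2 fold change was 0.22 ± 0.08 (SE; DESeq2 adjusted p = 0.0359), and the call was the least stable of the 4, since it held in 7 of 24 alternative settings against 23 of 24 for Pantr1, Miat and Rian. Gm25129, a small nucleolar RNA gene inside Snhg11 with a mean of 63.1 normalized counts, was lower by a log2 fold change of -0.44 ± 0.16 (DESeq2 adjusted p = 0.0277). Of the genes beside Snhg11, Ralgapb (0.10 ± 0.03) and Actr5 (0.36 ± 0.10) were higher and Ppp1r16b (-0.21 ± 0.05) was lower, of 5 tested (DESeq2 adjusted p = 0.00128, 0.00289 and 0.000528).

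Without lane as a term, the RNAs that did not pass the test were bounded rather narrowly. The 95% interval of the log2 fold change was -0.05 to 0.14 for Malat1, -0.13 to 0.04 for Meg3, -0.06 to 0.10 for Snhg14 and -0.03 to 0.13 for Peg13. It was wider for Neat1, at -0.18 to 0.13, and for Mirg, at -0.21 to 0.00. With lane as a term the intervals of all these RNAs widened. They were then -0.40 to 0.10 for Malat1, -0.39 to 0.07 for Meg3, -0.32 to 0.17 for Snhg14 and -0.24 to 0.26 for Peg13. Neat1 was at -0.54 to 0.38 and Mirg at -0.40 to 0.28. Snhg14 ranged from 7636 to 9194 normalized counts in controls and from 7908 to 10013 in CBP-ifKOs, and Peg13 from 2299 to 2498 and from 2270 to 2893. Ube3a, the ubiquitin ligase gene that Snhg14 overlaps on the opposite strand, had a log2 fold change of 0.04 ± 0.04 (DESeq2 adjusted p = 0.525). Whether the counting used the strand is not given in the sources used here, so reads of this pair may be mixed. The span of Snhg14 also holds 208 small nucleolar RNA genes, whose summed mean was 501 normalized counts against 8393 for Snhg14, and that of Mirg 15 microRNA genes, whose summed mean was 66.5. How well reads of 50 bases kept above a mapping quality of 10 count such short genes was not tested. These sums therefore do not give the amounts of the small RNAs.

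**Figure D2:**
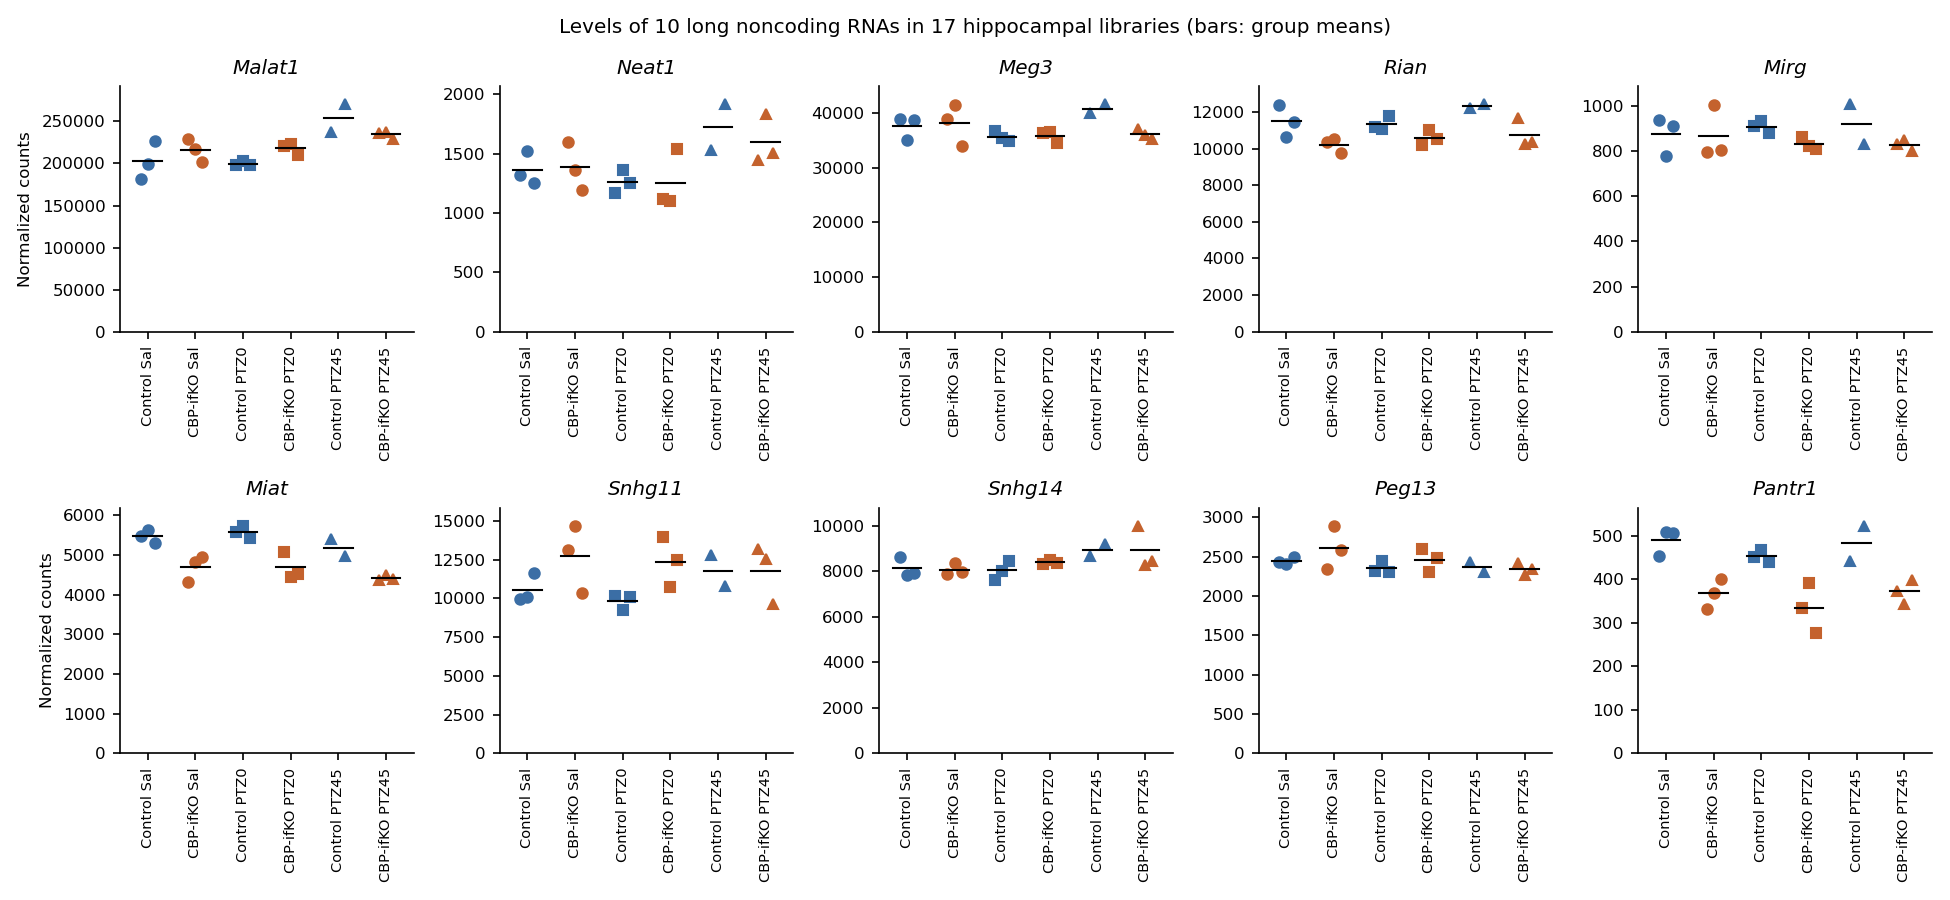
Normalized counts for each RNA (1 panel each, axis from 0) in the 6 groups, with a point per library, controls in blue, CBP-ifKOs in orange and a black line at each group mean. Pantr1 is lower in all 9 CBP-ifKO libraries than in all 8 control libraries, and Malat1 and Neat1 are highest in Control PTZ45.

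Within single treatments, with 3 or fewer libraries a group, up to 3 of the RNAs were called between the genotypes. In Sal mice Pantr1 alone was called, at -0.42 ± 0.12 (DESeq2 adjusted p = 0.0386), where 1.77% of genes were called lower and 0.267% higher. In PTZ0 mice Snhg11 was higher at 0.33 ± 0.08, and Miat (-0.25 ± 0.06) and Pantr1 (-0.44 ± 0.13) were lower (DESeq2 adjusted p = 0.000675, 0.00158 and 0.0113), where 1.43% of genes were higher and 5.25% lower. In PTZ45 mice DESeq2 called 0 of the 10 RNAs, against 3.07% of 15224 genes (edgeR also called 0). An unadjusted p under 0.05 was found for 4 RNAs, against 5.18% of 34780 genes. These 34780 include genes of low counts, unlike the 10 RNAs, so the 2 shares are not alike in kind. Pantr1 was at -0.37 ± 0.14 there, Miat at -0.23 ± 0.08, Rian at -0.19 ± 0.08 and Meg3 at -0.17 ± 0.07. The libraries of the genotypes did not overlap for 3 RNAs in Sal, 6 in PTZ0 and 4 in PTZ45, against 21.2, 28.9 and 33.8% of the genes tested. The comparisons within treatments share no library with each other, but each is a subset of the comparison over all treatments.

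Several of these calls rested on single libraries. Pantr1 in Sal was called in 1 of 6 fits that left out a library, namely without the third CBP-ifKO library, and its adjusted p was 0.396 without the second control (DESeq2). Pantr1 in PTZ0 was called without the first or the second CBP-ifKO library, and its adjusted p was 0.249 without the third (DESeq2). Snhg11 in PTZ0 was not called without the third CBP-ifKO library (DESeq2 adjusted p = 0.299), nor Miat without the second control (DESeq2 adjusted p = 0.0716). Snhg11 in PTZ0 was also not called with 1 fit of all 17 libraries or with the GC correction (DESeq2 adjusted p = 0.211 and 0.0961). In PTZ0, Rian was called lower with the GC correction (DESeq2 adjusted p = 0.00999), and Malat1 was called higher with TMM size factors (DESeq2 adjusted p = 0.0181) and with edgeR (adjusted p = 0.0404).

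**Figure D3:**
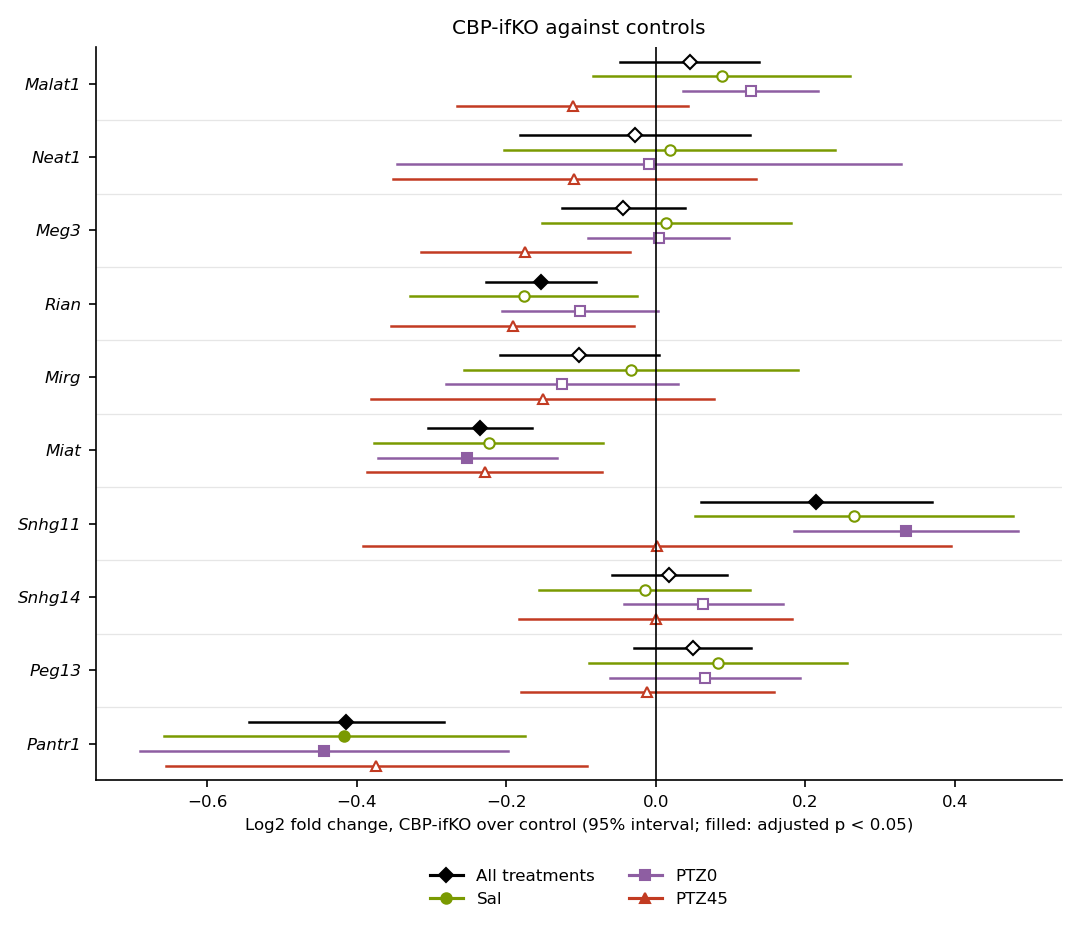
Log2 fold change of CBP-ifKO over control with its 95% interval for each RNA, over all treatments and within Sal, PTZ0 and PTZ45, with filled symbols where the DESeq2 adjusted p was under 0.05. Pantr1 and Miat lie below 0 in all 4 comparisons, Rian is called over all treatments, and Snhg11 lies above 0 in 3 comparisons and at 0.00 in PTZ45.

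Lane and genotype were separable only in the fit over all treatments, through lane 4, which held libraries of both genotypes. In lane 4 the controls were PTZ45 and the CBP-ifKOs were Sal, so genotype and treatment cannot be told apart within it. The fit therefore takes the differences between treatments as equal in both genotypes, which was not settled here, and its estimates depend on that. With lane as a term 0 of the 10 RNAs were called by DESeq2, with only Rian at an unadjusted p under 0.05, and of all genes 3 were higher and 128 lower. Pantr1 was then at -0.34 (95% interval -0.77 to 0.08, DESeq2 adjusted p = 0.934), Miat at -0.20 (-0.42 to 0.03, adjusted p = 0.894) and Rian at -0.26 (-0.49 to -0.04, adjusted p = 0.592). The log2 fold change of Snhg11 turned to -0.064 (-0.60 to 0.47). Crebbp was called in the same fit, at -0.98 ± 0.18 (DESeq2 adjusted p = 1.53e-05). By lane, Snhg11 averaged 10185 normalized counts in lane 3, 12358 in lane 4 and 12086 in lane 5, and Pantr1 472, 414 and 353.

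Markers of some cell types also differed between the genotypes. All 6 tested markers of CA1 pyramidal cells, such as Wfs1, were lower (median log2 fold change -0.43), with a summed level of 5479 to 6625 normalized counts in controls and 3896 to 5011 in CBP-ifKOs. Of the oligodendrocyte precursor markers 4 of 5 were lower, Pdgfra among them, with a summed level of 1997 to 2171 and 1603 to 1833. Of the CA3 pyramidal cell markers 2 of 8 were lower, Cpne4 and Elavl2, with a summed level of 4381 to 4841 and 3422 to 4169, and of the interneuron markers 3 of 9 were lower, with 8590 to 9006 and 7040 to 8187. Over all genes tested, 11.5% were called lower and 7.76% higher, and 25% in either direction among genes averaging 50 or more normalized counts. The CA3 and interneuron counts were not far above these shares. The summed levels of these 4 lists did not overlap between the genotypes, and those of the other lists did. A sum weighs the most abundant markers most, and no share over all genes was computed for sums. Of the dentate granule cell markers 2 were higher and 4 lower of 8, and 3 of 8 astrocyte markers and 1 of 7 endothelial and mural cell markers (Rgs5) were lower, while none of the 8 oligodendrocyte or 8 microglia markers was called by DESeq2. No marker of these lists was at 0. The part of these cell types in the differences of Pantr1, Miat and Rian was not tested.

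Other long noncoding RNAs showed differences in both directions. Of 25 tested from a list of 31, 4 were higher and 4 lower in CBP-ifKOs. Firre, a nuclear RNA of the X chromosome, was higher at 0.40 ± 0.04, and Ftx, a noncoding gene of the X inactivation centre, at 0.30 ± 0.05 (DESeq2 adjusted p = 5.55e-24 and 3e-09). Gas5, a host gene of small nucleolar RNAs, was lower at -0.26 ± 0.05, and Pvt1 at -0.26 ± 0.06 (DESeq2 adjusted p = 2.59e-06 and 0.0002). Of all other long noncoding genes averaging 50 or more normalized counts, 8.94% of 537 were higher and 9.50% lower, against 10.3 and 15.9% of protein-coding genes. Among the genes for proteins of the bodies that Malat1 and Neat1 build or occupy, 1 of 20 for paraspeckle proteins was higher (Rbm4b, 0.22 ± 0.05) and 4 of 26 for nuclear speckle proteins were higher, including the splicing factors Srsf6 (0.19 ± 0.04) and Srsf11 (0.18 ± 0.05) (DESeq2 adjusted p = 3.19e-05, 2.83e-06 and 0.00137). None of either list was lower.

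The second question was whether PTZ, 45 min before the hippocampus was taken, altered these RNAs in kindled mice. In controls Malat1, Neat1, Meg3 and Snhg11 were higher in PTZ45 than in PTZ0 by 14.1 to 36.6%, and no RNA was lower, while 1.18% of the 17982 genes tested were called higher and 0.0667% lower. Against Sal the same PTZ45 libraries gave estimates of the same sign for these 4 RNAs, but DESeq2 called 0 of 10, against 1.17% of genes (edgeR also called 0). Of the 10 RNAs, 2 had an unadjusted p under 0.05, against 4.03% of 35021 genes, those of low counts included. Both comparisons use the same 2 PTZ45 libraries and are not independent.

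Malat1 was at 198145, 202583 and 198678 normalized counts in Control PTZ0, at 182083, 199562 and 226751 in Control Sal and at 237256 and 270485 in Control PTZ45. Both PTZ45 libraries were above all 6 others, and the 3 Sal libraries were spread much more widely than the 3 PTZ0 libraries. The log2 fold change was 0.34 ± 0.06 against PTZ0, a rise of 26.9% (DESeq2 adjusted p = 6.73e-06), and 0.32 ± 0.10 against Sal (DESeq2 adjusted p = 0.0735). The call against PTZ0 held in all 11 alternative settings, none of which had lane as a term. Control PTZ45 lay in lane 4 and the other controls in lane 3, so lane and PTZ45 cannot be told apart. By lane, Malat1 averaged 201300 normalized counts in lane 3, 231264 in lane 4, these PTZ45 libraries included, and 226408 in lane 5. Of the 6 settings that kept all libraries, Malat1 was called against Sal only in 1 fit of all 17 libraries (DESeq2 adjusted p = 0.00616), and the adjusted p was 0.881 with the GC correction, where the log2 fold change was 0.23, and 0.348 with the replicate block.

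Neat1 was at 1167, 1359 and 1254 normalized counts in Control PTZ0, 1322, 1521 and 1253 in Control Sal and 1533 and 1917 in Control PTZ45. Both PTZ45 libraries were above all 6 others, the first of them only just above the highest Sal library. The log2 fold change was 0.45 ± 0.10 against PTZ0 (DESeq2 adjusted p = 0.0011) and 0.34 ± 0.12 against Sal (DESeq2 adjusted p = 0.195). Without the second PTZ45 library the difference from PTZ0 was 0.29 (DESeq2 adjusted p = 0.351), and without the first PTZ0 library the adjusted p was 0.185. It was also not called with 1 fit of all 17 libraries or with the replicate block (DESeq2 adjusted p = 0.124 and 0.102).

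Meg3 was at 36703, 35425 and 34889 normalized counts in Control PTZ0, 38898, 35066 and 38766 in Control Sal and 39938 and 41589 in Control PTZ45. Its log2 fold change was 0.19 ± 0.05 against PTZ0 (DESeq2 adjusted p = 0.0368) and 0.11 ± 0.08 against Sal (DESeq2 adjusted p = 0.823). Snhg11 was at 10140, 9251 and 10058 in Control PTZ0, 9946, 10075 and 11640 in Control Sal and 12773 and 10814 in Control PTZ45, with 0.26 ± 0.08 against PTZ0 (DESeq2 adjusted p = 0.0388) and 0.16 ± 0.10 against Sal (DESeq2 adjusted p = 0.786). The second PTZ45 library of Snhg11 lay below the highest Sal library. Each of these 2 calls held in 1 of 5 fits that left out a library, Meg3 without the first and Snhg11 without the second PTZ45 library. Of the 6 other settings, Meg3 was called with the GC correction and with edgeR (adjusted p = 0.00143 and 0.0267), and Snhg11 in none, with adjusted p from 0.061 with TMM size factors to 0.736 with 1 fit of all 17 libraries (DESeq2). The libraries of PTZ45 and PTZ0 did not overlap for 7 of the 10 RNAs, where 33.4% of genes did not, and those of PTZ45 and Sal for 4, where 32.3% did not.

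Rian (0.11 ± 0.06) and Snhg14 (0.15 ± 0.06) had an unadjusted p under 0.05 against PTZ0 in controls but were not called (DESeq2 adjusted p = 0.569 and 0.417). Mirg, Miat, Peg13 and Pantr1 had log2 fold changes from -0.11 to 0.09. Both RNAs at 38.2% exonic GC, Rian and Snhg14, were among the 4.55% of genes lowest in GC, and a GC correction took them from 0.10 and 0.13 against Sal to -0.05 and -0.01.

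**Figure D4:**
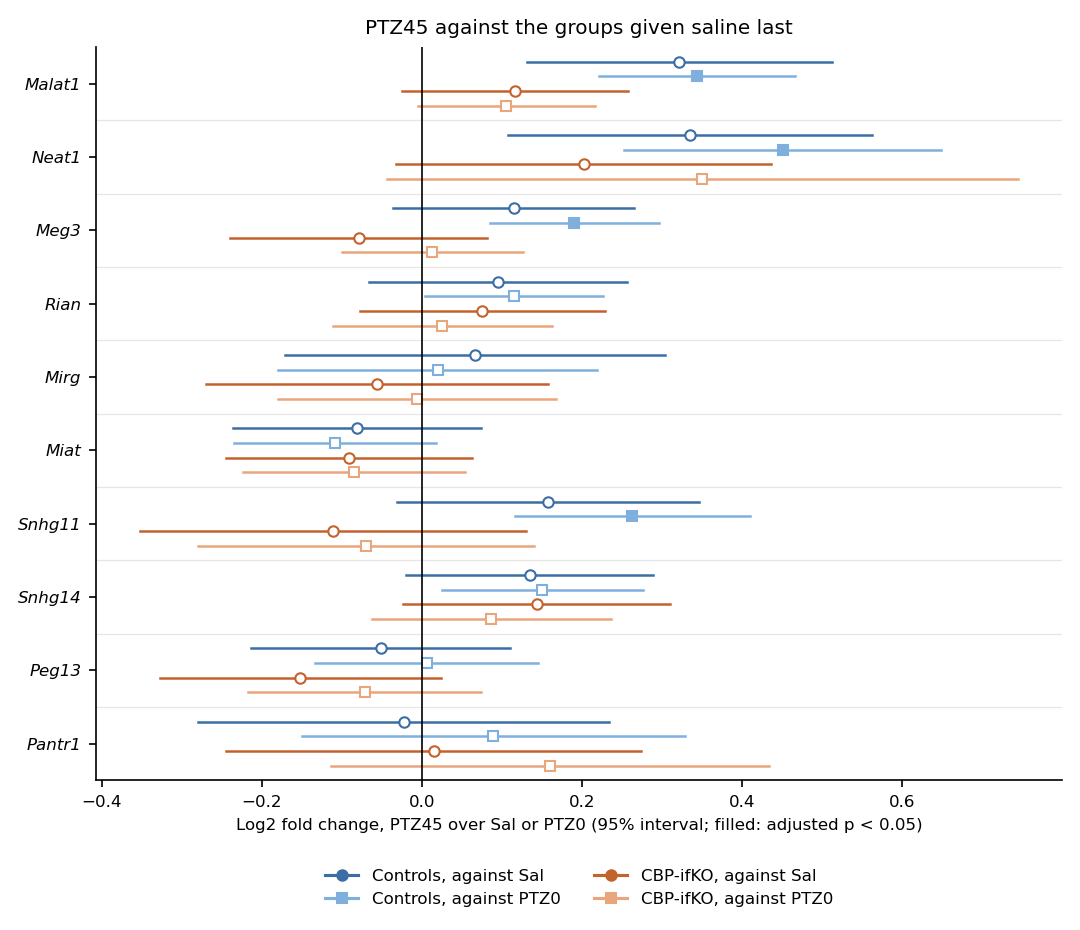
Log2 fold change of PTZ45 over Sal (circles) and over PTZ0 (squares) with its 95% interval for each RNA in controls (blue) and CBP-ifKOs (orange), filled where the DESeq2 adjusted p was under 0.05. Malat1, Neat1, Meg3 and Snhg11 are filled in controls against PTZ0, and no symbol of the CBP-ifKOs is filled.

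In CBP-ifKOs DESeq2 called 0 of 10 RNAs in PTZ45 against Sal, where 0.294% of genes were called, and 0 of 10 against PTZ0, where 0.0872% were called, with 0 at an unadjusted p under 0.05 in both (edgeR also called 0). Malat1 was at 228906, 217806 and 201864 normalized counts in CBP-ifKO Sal, 221216, 222910 and 210324 in PTZ0 and 236786, 237969 and 229242 in PTZ45. The 3 PTZ45 libraries were above all 6 others, by a log2 fold change of 0.12 ± 0.07 over Sal and 0.10 ± 0.06 over PTZ0. Such a separation held for 1 of the 10 RNAs in each of these comparisons, against 12.9 and 10.3% of genes. PTZ45 and PTZ0 of CBP-ifKOs shared a lane. Neat1 was at 1594, 1363 and 1194 in CBP-ifKO Sal, 1114, 1099 and 1538 in PTZ0 and 1444, 1833 and 1508 in PTZ45. The PTZ45 libraries of Neat1 overlapped with both other groups, and the log2 fold change was 0.20 ± 0.12 over Sal and 0.35 ± 0.20 over PTZ0, the latter called only without the third PTZ0 library (0.53, DESeq2 adjusted p = 0.0141).

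That a response was called in controls and not in CBP-ifKOs does not show that the genotypes differed. The interaction of genotype and PTZ45, fitted on the Sal and PTZ45 libraries, was called by DESeq2 for 0 of the 10 RNAs, against 0.329% of genes, with 0 at an unadjusted p under 0.05 (edgeR also called 0). It was -0.21 for Malat1 (95% interval -0.45 to 0.04), -0.13 for Neat1 (-0.48 to 0.22), -0.20 for Meg3 (-0.42 to 0.03) and -0.27 for Snhg11 (-0.76 to 0.22). These intervals include both no difference and a loss as large as the response of controls. In both genotypes PTZ45 and Sal lay in different lanes, so lane and response cannot be told apart in this fit.

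In controls, the share of mitochondrial counts was, like Malat1, higher in both PTZ45 libraries than in all others. It was 7.51 and 8.62% of counts in the Control PTZ45 libraries, against 5.79 to 7.23% in Control Sal and 6.09 to 6.50% in Control PTZ0. In CBP-ifKOs it was 7.38 to 8.13% in PTZ45, 6.99 to 8.69% in Sal and 6.22 to 7.42% in PTZ0. Over the 17 libraries with group means removed, the gene whose log2 level was closest to that of Malat1 was mt-Rnr1, the mitochondrial 12S ribosomal RNA (Pearson r = 0.94), followed by Ahcyl1 and Sptbn1 (0.92 and 0.91), among 13040 genes. Malat1 and the mitochondrial share, as percentages, ranked the libraries of a group alike in both Sal groups and in Control PTZ45, and not in the other groups. In CBP-ifKO PTZ0 the library highest in Malat1, at 1.84%, had the lowest mitochondrial share, at 6.22%. Mitochondrial and nuclear transcripts are counted in the same libraries, and the part of library composition in the higher Malat1 of PTZ45 controls was not tested.

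**Figure D5:**
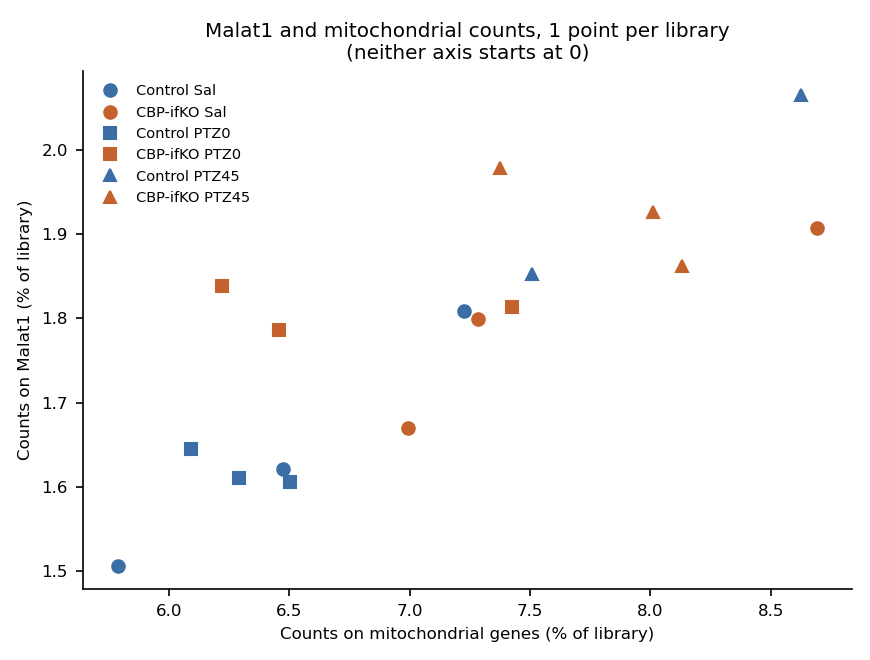
Malat1 counts against counts on mitochondrial genes, both as a percentage of the library, with a point per library, controls in blue, CBP-ifKOs in orange and a symbol for each treatment (neither axis starts at 0). The second Control PTZ45 library is highest in Malat1 at 2.07% with 8.62% mitochondrial counts, and the first Control Sal library is lowest in both at 1.51 and 5.79%.

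Some RNAs that encode proteins of these nuclear bodies were also higher in controls after PTZ45. In PTZ45 against PTZ0, 3 of 26 genes for nuclear speckle proteins were higher, the splicing factors Tra2b (0.41 ± 0.10), Srsf7 (0.32 ± 0.09) and Srsf5 (0.32 ± 0.07), with 0 lower (DESeq2 adjusted p = 0.00322, 0.0196 and 0.000545). Among the genes for paraspeckle proteins Rbm3, an RNA-binding protein, was higher (0.45 ± 0.13, DESeq2 adjusted p = 0.0477) and 0 were lower. Of 25 other long noncoding RNAs tested, 1 was higher, Snhg1 (0.70 ± 0.17, DESeq2 adjusted p = 0.00762), and 0 were lower. All 5 immediate early genes of the list were higher, Fos by 6.68 ± 0.19 and Npas4 by 6.23 ± 0.37. None of the 7 genes beside Malat1 and Neat1 was called by DESeq2, with a median log2 fold change of -0.14. Of the cell type markers, 1 of 7 endothelial and mural cell markers was lower (Vtn, -0.38 ± 0.11, DESeq2 adjusted p = 0.0424) and none of the astrocyte, oligodendrocyte, microglia or neuron lists was called.

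Kindling injections alone, as PTZ0 against Sal a week after kindling, left the 10 RNAs within the spread of the libraries. In CBP-ifKOs these injections did not lead to progressive seizures in the study. DESeq2 called 0 of 10 in controls, where 0.00843% of genes were called, and 0 of 10 in CBP-ifKOs, where 0.0112% were called, with 0 at an unadjusted p under 0.05 (edgeR also called 0). The log2 fold changes lay between -0.11 and 0.05 in controls, which shared a lane, and between -0.14 and 0.06 in CBP-ifKOs, which did not. For Malat1 the 95% interval was -0.15 to 0.11 in controls, and for Neat1 it was -0.28 to 0.05.

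Finally, RNAs made from 1 locus were compared across mice. With group means removed, Meg3 and Rian were correlated over the 17 libraries (Pearson r = 0.58, permutation p = 0.0135, adjusted 0.0269; Spearman rho = 0.61, permutation p = 0.0113, adjusted 0.0452), as were Meg3 and Mirg (Pearson r = 0.59, permutation p = 0.0133, adjusted 0.0269; Spearman rho = 0.53, permutation p = 0.0289, adjusted 0.0577). Without the 2 libraries farthest from the median of Meg3, r was 0.40 and 0.43. Rian with Mirg gave r = 0.32 (permutation p = 0.217, adjusted 0.290; Spearman rho = 0.23, permutation p = 0.372, adjusted 0.497), and Malat1 with Neat1 gave r = 0.18 (permutation p = 0.492, adjusted 0.492; Spearman rho = 0.16, permutation p = 0.545, adjusted 0.545). These were 4 relations, adjusted together. The permutations took the 17 values as exchangeable and did not allow for the group means removed, so these p-values are too small. Whether either Meg3 relation passes with that allowed for was not tested. Within-lane values were not computed, since each lane holds 5 or 6 libraries.

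As a description of likeness, the genes whose log2 level was nearest to each of 3 further RNAs, over the same 17 libraries with group means removed, were Smarca2, Fam196a and Cdh13 for Meg3 (Pearson r = 0.92, 0.88 and 0.87), Cpeb3, Gm1043 and Amer2 for Snhg11 (0.97, 0.96 and 0.96) and Pkp4, Nrn1 and Fbxo46 for Pantr1 (0.95, 0.94 and 0.92). They were the 3 highest of 13040 genes for each RNA.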

How the data were processed

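The authors deposited raw counts per gene, whole numbers that had not been normalized, for total RNA of the hippocampus sequenced as single-end reads of 50 bases. Per the labels and the study's methods, reads were trimmed with Trim Galore 0.6.4, aligned with STAR 2.6.1 to GRCm38, kept above a mapping quality of 10 and counted on Ensembl 99 exons with Rsubread; the strand setting is not given in the sources used here. Of 18 columns of counts, 1, named like a Control PTZ45 library, matched no sample and was left out. Gene names, positions and GC content came from GENCODE M21 (99.6% of identifiers matched), and promoters from RefSeq on GRCm38.p6.

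Counts were tested with the Wald test of DESeq2 1.42.0 in R 4.3.3, two-sided, on the libraries compared. The overall effect of genotype was fitted on 17 libraries with treatment as a term, and the interaction on the Sal and PTZ45 libraries. A gene was called at a Benjamini-Hochberg adjusted p under 0.05 over all genes tested, with independent filtering. Libraries are separate mice of 1 dissection each, and p-values weigh the differences against the spread between mice within groups. Each group lies in 1 lane, so that spread does not include the difference between lanes. Library depth was 5831992 to 18735643 counts, and counting error is smallest for Malat1. Correlations used log2(normalized count + 1) with 100000 permutations. Alternatives were edgeR 4.0.16 (quasi-likelihood), TMM size factors, a minimum of 10 counts in 2 or more libraries, 1 fit of all 17 libraries, a GC correction by loess with a span of 0.5, the replicate number as a block, lane as a term and leaving out each library. The fits were tested on simulated data. The text names all 10 RNAs, and of each gene list at most 4 called genes by size of change, genes beside or overlapping an RNA of the 10 and, for Malat1, Meg3, Snhg11 and Pantr1, the 3 genes with the most similar levels. The called genes of PTZ45 against PTZ0 were named after their values were seen. A further gene of the lists is not reported here. The RNAs and the lists were chosen with earlier results of these data known.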

Additional observations from a re-analysis of the deposited data

Results flagged for a closer look

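Among the 9 CBP-ifKO libraries, 2 values stood apart from the rest of their genotype, by the gap to the nearest library relative to the whole range. Mirg was at 1004 normalized counts in the second CBP-ifKO Sal library, the highest of the 9, while the other 8 ranged from 795 to 862. That library is the shallowest, with 5831992 counts, and also holds the highest CBP-ifKO values of Meg3 (41511), Snhg11 (14693) and Peg13 (2893). Snhg14 was at 10013 normalized counts in the first CBP-ifKO PTZ45 library, the highest of the 9, while the other 8 ranged from 7908 to 8517. Each of the 10 RNAs was examined in both genotypes, and chance alone sets such a value apart in about 1 in 20 groups.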

How the results depend on the processing

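Lane as a term was possible only for the genotype over all treatments, with treatment differences taken as equal in both genotypes. It took the RNAs called there from 4 to 0 and turned the log2 fold change of Snhg11 from 0.22 to -0.064. In Sal, the RNAs called between genotypes went from 1 to 2 with 1 fit of all 17 libraries and to 0 with edgeR, with the filter on low counts and with the replicate block. In PTZ45 they went from 0 to 1 with 1 fit of all 17 libraries, as did PTZ45 against Sal in controls. PTZ45 against PTZ0 in controls went from 4 to 1 with 1 fit of all 17 libraries, to 2 with TMM size factors, to 2 with the filter on low counts and to 1 with the replicate block. The cause was not tested. Leaving out a library gave 3 to 4 calls for the genotype over all treatments, 0 to 3 in Sal, 1 to 3 in PTZ0 and 0 in PTZ45, 0 to 2 for PTZ45 against Sal and 1 to 4 against PTZ0 in controls, 0 against Sal and 0 to 1 against PTZ0 in CBP-ifKOs, and 0 for kindling alone and the interaction. For Snhg11 over all treatments, the call was kept in 5 of these 17 fits, those without library 2 of CBP-ifKO PTZ0, library 3 of CBP-ifKO Sal, CBP-ifKO PTZ45 or Control Sal, or library 1 of Control PTZ45, and the highest adjusted p was 0.147 without the first Control Sal library (DESeq2). The difference of Malat1 between PTZ45 and Sal in controls was called without the third Control Sal library (0.41) or the first Control PTZ45 library (0.41), and that of Neat1 without the first Control PTZ45 library (0.49). The correlation ranged from 0.46 to 0.65 for Meg3 with Rian and from 0.32 to 0.77 for Meg3 with Mirg, from 0.07 to 0.40 for Rian with Mirg and from 0.03 to 0.46 for Malat1 with Neat1. Meg3 with Mirg gave 0.32 (permutation p = 0.223) without the second CBP-ifKO Sal library. Over single RNAs and settings, 57 values lost a call, 14 gained one and 1388 stayed on their side of the threshold. Of these 1388, 110 changed sign, all of them without a call in either fit, 83 when a library was left out and 27 in other settings. With the GC correction the difference of PTZ45 from PTZ0 in controls went from 0.12 to -0.03 for Rian and from -0.11 to 0.00 for Miat, and that from Sal from 0.10 to -0.05 for Rian, from -0.08 to 0.03 for Miat and from 0.13 to -0.01 for Snhg14. With lane as a term, the difference of Malat1 between genotypes went from 0.05 to -0.15. The value of Snhg11 with lane was the only one to change sign from a call.

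The replicate numbers did not pair the samples. Of 8 pairs of same-numbered libraries, 1 had a correlation of deviations over 0.1 (range -0.35 to 0.37), and the block of replicate numbers left 3 RNAs called for the genotype over all treatments. The number of libraries, 2 or 3 a group, limits the precision, and the 2 Control PTZ45 libraries carry every PTZ45 result in controls.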
